A study of Mus musculus with 8 samples.

Results

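The genes described here are 10 non-collagen genes of cartilage: the transcription factors Sox5, Sox6 and Sox9, and the matrix or secreted proteins Acan, Comp, Matn1, Matn3, Hapln1, Cnmd and Ucma. They were taken by symbol from a table of 27133 genes, all 10 were in it, and all 10 were abundant enough to be tested among 17028 genes. The samples are parietal bones of C57BL6J mouse pups, collected after perfusion on postnatal day 9. One group had received an isotype control and the other an antibody that blocks CSF1R, a receptor of myeloid cells (anti-CSF1R), intended to deplete those cells. Both were given transcranially on postnatal days 2, 4 and 6, with no genetic change named. There were 4 libraries in each group, isotype 2 to 5 and anti-CSF1R 7 to 10. Each title carries its own number after the letters ms, but the labels do not state whether each library is a different pup. A p-value here is therefore judged against the spread between libraries.

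Cartilage is an avascular tissue in which chondrocytes lay down a gel of aggrecan and hyaluronan held by collagen II, IX and XI fibrils. SOX9 is required for chondrocytes to form, and SOX5 and SOX6, which have no activation domain of their own, act with it on enhancers of matrix genes such as Col2a1, Acan and Matn1. The parietal bone is a membrane bone, which ossifies without a cartilage template. Any cartilage in such a sample may thus come from small or neighbouring structures, and how much is taken could differ between dissections. The labels do not locate any cartilage, and the source of these transcripts was not tested. Matrix genes are fairly specific to chondrocytes, whereas Sox5, Sox6 and Sox9 are also active in other cells, Sox6 for one in erythroid and muscle precursors. In bulk RNA, fewer chondrocytes and less RNA per chondrocyte cannot be told apart.

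Matn1, Cnmd and Ucma varied most between libraries, so the 250 bases before the start of each are printed for reference, 5′ to 3′, from RefSeq on GRCm38.p6. They lie at chr4:130944135-130944384 on the plus strand (Matn1), chr14:79662184-79662433 on the minus strand (Cnmd) and chr2:4975872-4976121 on the plus strand (Ucma). Capitals mark CAAAG or CAATG on either strand, the 5-letter cores of the SOX-type word.
Matn1: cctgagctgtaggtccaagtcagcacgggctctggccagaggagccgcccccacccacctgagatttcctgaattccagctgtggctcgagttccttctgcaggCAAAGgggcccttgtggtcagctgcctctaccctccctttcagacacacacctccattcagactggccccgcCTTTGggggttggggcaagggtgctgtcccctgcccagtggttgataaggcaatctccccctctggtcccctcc
Cnmd: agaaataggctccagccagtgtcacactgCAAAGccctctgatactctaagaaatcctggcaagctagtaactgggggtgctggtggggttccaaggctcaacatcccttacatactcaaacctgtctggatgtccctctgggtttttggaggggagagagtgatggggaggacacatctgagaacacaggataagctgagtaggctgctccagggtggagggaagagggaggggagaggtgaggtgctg
Ucma: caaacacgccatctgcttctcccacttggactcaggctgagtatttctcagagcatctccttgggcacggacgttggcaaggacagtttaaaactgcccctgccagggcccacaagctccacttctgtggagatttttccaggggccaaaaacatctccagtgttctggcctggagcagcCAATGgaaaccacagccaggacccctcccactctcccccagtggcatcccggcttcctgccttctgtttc
Matn1 held the core CAAAG on both strands, Cnmd held CAAAG and Ucma held CAATG. Such short words are common, since 65% of the 32851 promoter windows of this length held at least 1 of the pair. The longer words AACAAT and AACAAAG, which overlap the cores, were in 9.42% and 5.03% of all windows, TATAAA was in 12.4%, and these letters were in none of the 3 windows shown. Of the 10 genes, 8 had a promoter entry, and Sox9 and Comp are named only.

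Total counts ran from 57496300 to 69118900 per library. Isotype 3 and 4 differed from the other 6 libraries in base composition: the Spearman correlation, across genes, of GC content with the deviation from the median library was 0.650 and 0.640 in them and -0.371 to -0.0290 elsewhere. Results are therefore also given without this pair (isotype 2 and 5 only) and with an offset for GC content and transcript length. Of the labelled tissue's markers, all 12 osteoblast and osteocyte genes listed were tested, led by Col1a1 and Col1a2, with Col1a1 at 73608 CPM or more in each library. Levels are CPM (counts scaled to a common depth) on library sizes scaled by TMM, fold changes are anti-CSF1R minus isotype on the log2 scale with a standard error (SE), and the threshold is an edgeR adjusted p of 0.05.

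None of the 10 genes passed the threshold. Of all genes tested, 0.846% did (144 genes, with 0.822% lower). At an unadjusted p under 0.05, 5 of the 10 (Acan, Comp, Matn1, Cnmd and Ucma) had lower levels with anti-CSF1R and 0 had higher levels, against 12.6% and 5.26% of all genes. DESeq2 called 3 of the 10, all lower (Acan, Comp and Ucma), against 4.01% of all genes in either direction and 3.29% lower. The count was 0 in limma-voom (0.681% of all genes, 0.652% lower), with isotype 2 and 5 only (3.06%, of which 2.38% lower and 0.679% higher) and with the GC and length offset (2.21%). The median log2 fold change was -1.14 over the 10 genes and 0.03 over all genes tested. Levels in isotype 5 were the highest of the 8 libraries for all 10 genes, and isotype 2 stood close to anti-CSF1R 7 for most of them.

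**Figure D1:**
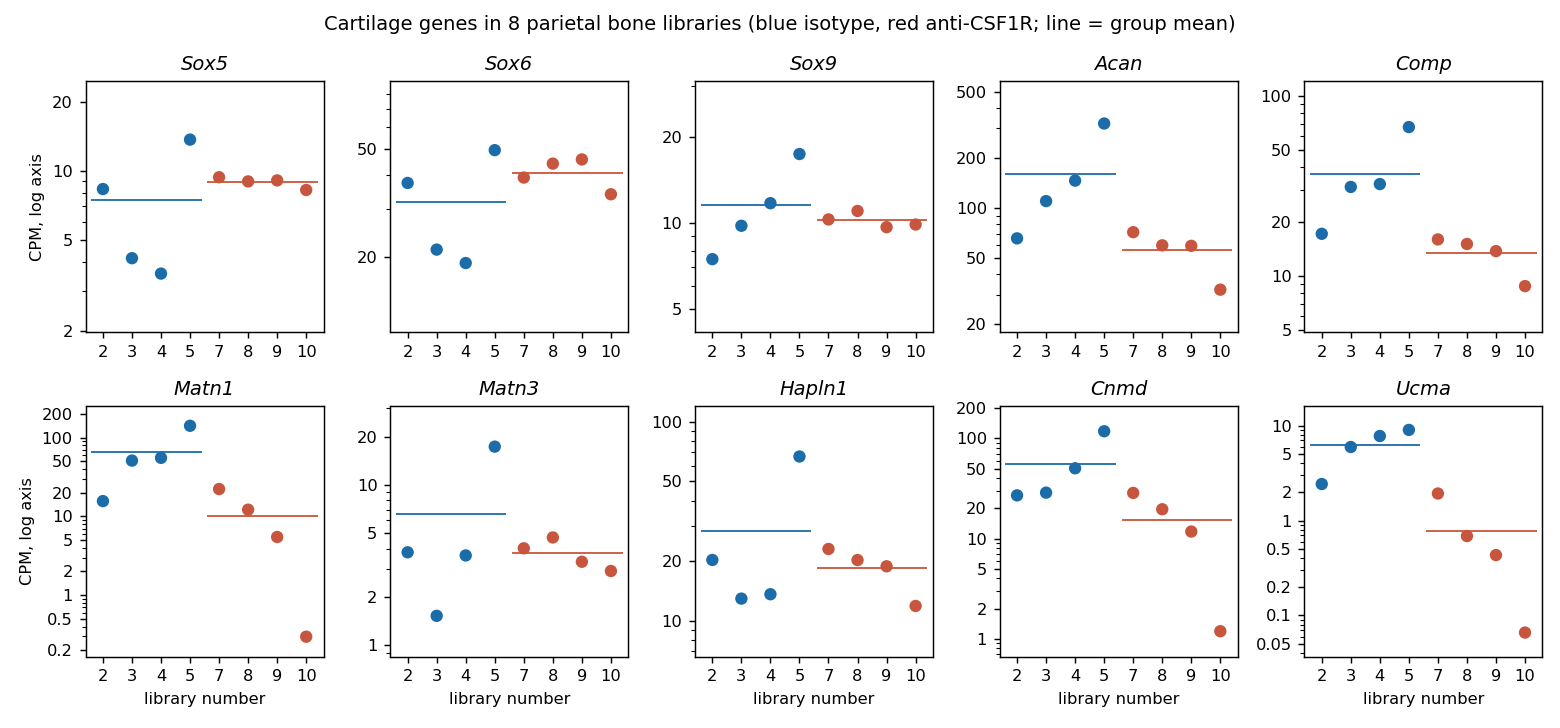
CPM (log axis) of the 10 cartilage genes in each library, with blue points for the 4 isotype libraries, red points for the 4 anti-CSF1R libraries and a line at each group's mean. Isotype 5 is the highest point in all 10 panels, and anti-CSF1R 10 is the lowest in 6, far below the rest for Matn1 (0.297 CPM), Cnmd (1.19 CPM) and Ucma (0.0660 CPM).

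Acan encodes aggrecan, the large proteoglycan that gives cartilage its resistance to compression. For Acan, libraries isotype 2, 3, 4 and 5 gave 65.6, 110, 146 and 321 CPM, against 71.5, 59.6, 59.2 and 32.3 CPM from anti-CSF1R 7, 8, 9 and 10. The groups overlapped through isotype 2 and anti-CSF1R 7, and the range over all libraries was 9.97-fold. The log2 fold change was -1.53 ± 0.46 (SE), with an edgeR adjusted p of 0.212, and -0.95 without isotype 5. DESeq2 gave -1.55 with an adjusted p of 0.0136, and the 17 alternatives spanned 0.0136 to 0.451.

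Hapln1 encodes link protein, which fastens aggrecan to hyaluronan. For Hapln1, the isotype series 2 to 5 read 20.2, 12.9, 13.6 and 66.7 CPM, against 22.9, 20.2, 18.8 and 11.9 CPM from anti-CSF1R 7 to 10. Here isotype 3 and 4 were low, unlike for Acan, and 1 library, isotype 5, set the isotype mean of 28.3 ± 25.8 CPM (SD, n = 4) against 18.4 ± 4.70 CPM (SD, n = 4). The log2 fold change of -0.62 ± 0.52 (edgeR adjusted p = 0.401) turned to 0.24 without isotype 5. The fit on isotype 2 and 5 gave -1.24 and the offset fit -1.08, and the adjusted p of Hapln1 spanned 0.169 to 0.651 over 17 alternatives. The Hapln1 transcript had the lowest GC content of the 10, 39.8%.

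The matrilins are adaptor proteins that bridge collagen fibrils and proteoglycans, and Matn1 is the form most closely tied to mature hyaline cartilage. For Matn1, isotype 2 to 5 gave 15.6, 51.1, 55.4 and 142 CPM, against 22.3, 12.2, 5.48 and 0.297 CPM from anti-CSF1R 7 to 10. This was the widest range of the 10 genes, 476-fold between isotype 5 and anti-CSF1R 10, whose library held 18 Matn1 counts against 10011. Isotype 2 lay below anti-CSF1R 7, so the groups overlapped, and the log2 fold change of -2.71 ± 1.02 did not pass (edgeR adjusted p = 0.278). It was -3.46 without anti-CSF1R 7 and -2.02 without isotype 5. Matn3 is a matrilin also found in developing growth plates, and isotype 2 to 5 gave 3.80, 1.53, 3.63 and 17.3 CPM of it, against 4.02, 4.70, 3.32 and 2.91 CPM from anti-CSF1R 7 to 10. Apart from isotype 5 its libraries lay between 1.53 and 4.70 CPM with the groups intermixed. The log2 fold change of Matn3 was -0.82 ± 0.64 (edgeR adjusted p = 0.376) and turned to 0.32 without isotype 5.

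Comp encodes cartilage oligomeric matrix protein, a pentameric glycoprotein of cartilage and also of tendon and ligament. For Comp, isotype 2 to 5 gave 17.1, 31.2, 32.3 and 66.9 CPM, against 15.9, 15.04, 13.7 and 8.78 CPM from anti-CSF1R 7 to 10. Every anti-CSF1R library was below every isotype library, though only narrowly so for isotype 2. Comp and Ucma were the 2 of 10 genes without overlap, and 8.34% of all genes tested had every anti-CSF1R library lower and 6.61% every one higher. The log2 fold change of Comp was -1.46 ± 0.39 (edgeR adjusted p = 0.153). It was called by DESeq2 (-1.49, adjusted p = 0.00399) and by edgeR without isotype 2 (-1.72, adjusted p = 0.0420), and the 17 alternatives spanned 0.00399 to 0.402.

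Cnmd encodes chondromodulin, a secreted inhibitor of blood vessel growth made by avascular cartilage. For Cnmd, isotype 2 to 5 gave 27.0, 28.7, 50.3 and 118 CPM, against 28.5, 19.6, 11.7 and 1.19 CPM from anti-CSF1R 7 to 10. Anti-CSF1R 7 lay between isotype 2 and 3, and anti-CSF1R 10 held 72 counts. The log2 fold change was -1.87 ± 0.81 (edgeR adjusted p = 0.278), and -1.21 without isotype 5. Ucma encodes a small secreted protein rich in Gla residues, named for the upper zone of the growth plate and cartilage matrix. Per length it was the lowest of the 7 matrix genes in the anti-CSF1R group. For Ucma, isotype 2 to 5 gave 2.43, 5.96, 7.78 and 9.02 CPM, against 1.93, 0.687, 0.433 and 0.0660 CPM from anti-CSF1R 7 to 10. The lowest value rests on 4 counts, next to a detection floor of 3 counts or 0.0495 CPM in that library. Ucma had the largest fitted difference of the 10 (log2 fold change -3.00 ± 0.77, edgeR adjusted p = 0.140), and DESeq2 called it (-3.05, adjusted p = 0.0192, range 0.0192 to 0.396 over 17 alternatives). Leaving out anti-CSF1R 7 gave -3.97 for Ucma.

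The 3 transcription factor genes spanned a narrower range than most matrix genes. For Sox9, isotype 2 to 5 gave 7.47, 9.77, 11.7 and 17.4 CPM, against 10.3, 11.0, 9.66 and 9.87 CPM from anti-CSF1R 7 to 10. The anti-CSF1R values lay inside the isotype range, and anti-CSF1R 10 did not stand apart (log2 fold change -0.18 ± 0.25, edgeR adjusted p = 0.590). Leaving out isotype 5 gave 0.080. For Sox5, isotype 2 to 5 gave 8.33, 4.16, 3.57 and 13.7 CPM, against 9.38, 8.99, 9.09 and 8.25 CPM from anti-CSF1R 7 to 10. Sox6 was the most abundant of the 3 per length, and isotype 2 to 5 gave 37.4, 21.2, 18.9 and 49.4 CPM, against 39.2, 44.1, 45.7 and 33.99 CPM from anti-CSF1R 7 to 10. For both genes isotype 3 and 4 were the lowest libraries of all, and the anti-CSF1R libraries fell between these and isotype 5. On the log2 scale Sox5 differed by 0.26 ± 0.39 and Sox6 by 0.36 ± 0.30 (edgeR adjusted p = 0.629 and 0.402). The fit on isotype 2 and 5 gave -0.31 and -0.095, and the offset fit -0.081 and 0.016. Sox5 stood at 0.025 without isotype 4 and 0.74 without isotype 5, and Sox6 at 0.17 and 0.66. Their transcripts are 44.8% and 46.1% GC, against 59.9% for Comp and 54.8% for Acan.

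**Figure D2:**
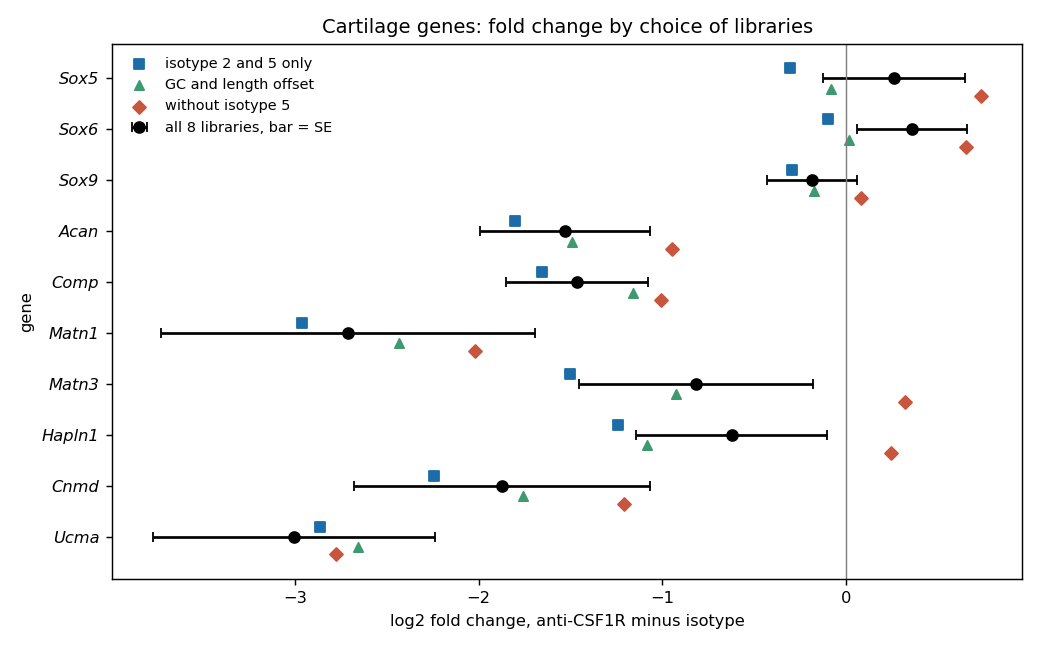
Log2 fold change, anti-CSF1R minus isotype, of the 10 cartilage genes: black points with SE bars use all 8 libraries, blue squares isotype 2 and 5 only, green triangles the GC and length offset, and red diamonds leave out isotype 5. Acan, Comp, Matn1, Cnmd and Ucma stay below 0 under these 4 choices, while Sox9, Matn3 and Hapln1 cross 0 without isotype 5.

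The 10 genes differed in how far they went down in anti-CSF1R 10. In that library Matn1, Cnmd and Ucma were at 0.0244, 0.0607 and 0.0962 times the median of the other 3 anti-CSF1R libraries. Acan, Comp and Hapln1 were at 0.541, 0.584 and 0.588 times, Matn3 at 0.722 times, and Sox5, Sox6 and Sox9 at 0.908, 0.771 and 0.960 times. In isotype 5 the order was another one: Hapln1 and Matn3 were 4.92 and 4.76 times the median of the other 3 isotype libraries, Cnmd 4.10 times, Sox5 3.29 times, Acan 2.93 times, Matn1 2.77 times, Sox6 2.33 times, Comp 2.15 times, Sox9 1.78 times and Ucma 1.51 times. Cnmd was thus among the 3 genes farthest out in both libraries, whereas Hapln1 and Matn3 stood out most in the high one and Matn1 and Ucma in the low one.

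Ratios within a library do not depend on library scaling and show the same split, but they can still carry the base composition difference of isotype 3 and 4. Per 100 CPM of Acan, Comp stood at 20.8 to 28.4 CPM in all 8 libraries. Matn1 gave 23.8, 46.6, 38.0 and 44.0 CPM per 100 of Acan from isotype 2 to 5, against 31.2, 20.4, 9.26 and 0.921 CPM from anti-CSF1R 7 to 10. Cnmd ran from 26.1 to 41.1 in the isotype libraries and stood at 39.9, 32.9, 19.8 and 3.68 in anti-CSF1R 7 to 10. Ucma ran from 2.81 to 5.42 under isotype and from 0.205 to 2.696 with anti-CSF1R. Hapln1 and Matn3 had their lowest ratios in isotype 3 and 4 (11.7 and 9.30 for Hapln1, 1.39 and 2.49 for Matn3) and their highest in anti-CSF1R 10 (36.7 and 9.01). Transcripts of these genes were 39.8% and 44.9% GC, against 54.8% for Acan, and the part of base composition in the ratios was not tested. Acan and Comp thus kept nearly the same proportion, while Matn1, Cnmd and Ucma were almost lost from the mixture in anti-CSF1R 10.

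**Figure D3:**
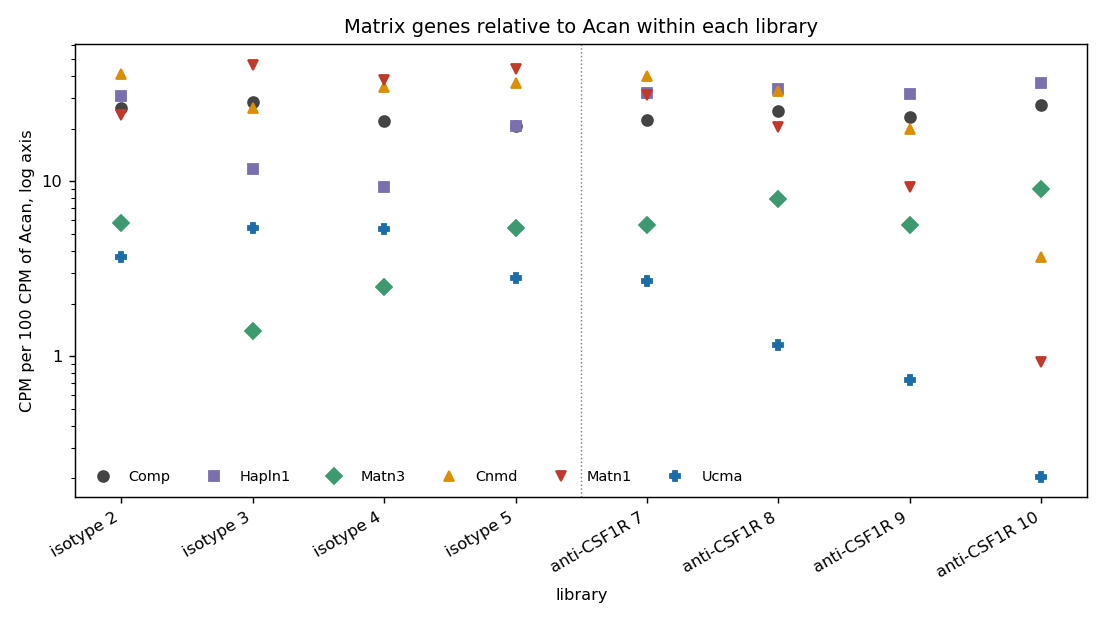
CPM of 6 matrix genes per 100 CPM of Acan (log axis) in each of the 8 libraries, with isotype libraries left of the dotted line. Comp stays between 20.8 and 28.4, whereas Matn1 spans 0.921 to 46.6 and is lowest in anti-CSF1R 10.

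Summed over the 10 genes, isotype 2 to 5 gave 205, 276, 343 and 821 CPM, against 226, 196, 177 and 109 CPM from anti-CSF1R 7 to 10. The 7 matrix genes alone summed to 152, 241, 309 and 741 CPM from isotype 2 to 5, against 167, 132, 113 and 57.3 CPM from anti-CSF1R 7 to 10. Acan made up 29.5% to 42.5% of the sum over 10 genes in each library. The 3 Sox genes together spanned 34.2 to 80.5 CPM in isotype libraries, against 52.1 to 64.4 CPM. Scaled for length (mean CPM per kilobase of the longest transcript), the isotype group had Cnmd first at 39.0, then Matn1 at 33.0, Acan at 21.8, Comp at 15.3, Ucma at 7.43, Hapln1 at 4.96, Sox6 at 3.66, Sox9 at 2.80, Matn3 at 2.18 and Sox5 at 1.03. In the anti-CSF1R group Cnmd was again first at 10.7, followed by Acan at 7.56, Comp at 5.54, Matn1 at 5.03 and Sox6 at 4.70, with Ucma last at 0.919.

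Collagens of cartilage also divided into variable and steadier genes. Col2a1 encodes the main fibril collagen of cartilage and was chosen here after its values were seen: isotype 2 to 5 gave 210, 305, 531 and 1951 CPM, against 182, 107, 76.1 and 15.1 CPM from anti-CSF1R 7 to 10 (log2 fold change -2.98 ± 0.88, edgeR adjusted p = 0.199, and -1.88 without isotype 5). Col11a2 and Col11a1, which osteoblasts also express, averaged 4335 ± 926 and 1122 ± 497 CPM under isotype, against 3208 ± 326 and 1111 ± 139 CPM (SD, n = 4; edgeR adjusted p = 0.278 and 0.978). Of the 8 collagen genes tested, 0 passed in edgeR, and 3 were lower and 1 higher at an unadjusted p under 0.05 (12.6% and 5.26% of all genes). DESeq2 called 2 lower, Col2a1 and Col9a2 (3.29% of all genes lower). Over the 8 collagens the median log2 fold change was -1.09. The 1 higher gene was Col10a1, with 47.3, 29.0, 27.9 and 77.4 CPM from isotype 2 to 5. Anti-CSF1R 7 to 10 gave 74.9, 62.0, 91.4 and 72.9 CPM of Col10a1 (log2 fold change 0.73 ± 0.32, edgeR adjusted p = 0.278). It was 1.12 without isotype 5 and 0.27 with isotype 2 and 5 only.

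**Figure D4:**
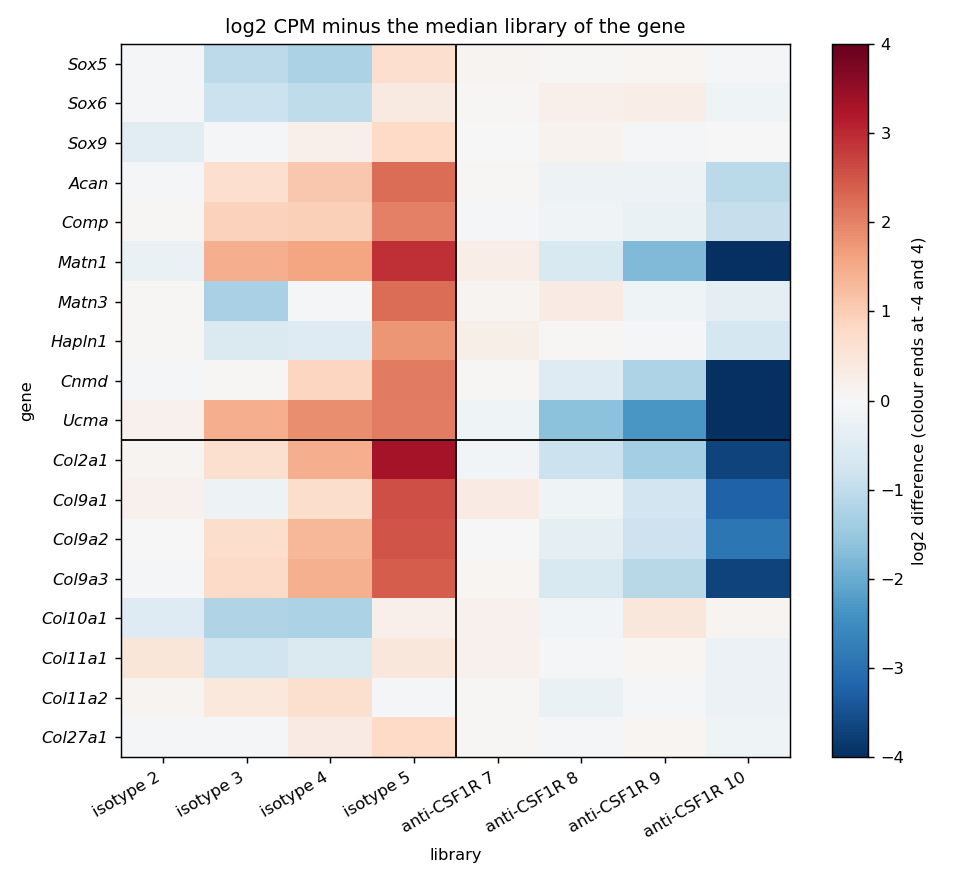
Log2 CPM of each gene minus its median library, for the 10 cartilage genes (above the line) and 8 cartilage collagens (below it), isotype libraries on the left. The darkest cells are Matn1, Cnmd, Ucma and Col2a1 with Col9a1 to Col9a3 in anti-CSF1R 10, and Col2a1 and Matn1 in isotype 5. Sox9, Col10a1, Col11a1 and Col11a2 sit near their median in anti-CSF1R 10.

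Among 12 other tested proteins of cartilage, 0 passed in edgeR and 7 were lower at an unadjusted p under 0.05 (12.6% of all genes), with a median log2 fold change of -1.10. DESeq2 called 3 of them lower (3.29% of all genes), namely Mia, Chadl and Nkx3-2, and edgeR without isotype 2 also called Mia and Chadl. Mia is a small secreted cartilage protein and Chadl a relative of chondroadherin. Nkx3-2 is a homeobox transcriptional repressor active in early chondrogenesis. The 2 most abundant were Itga10, a collagen-binding integrin subunit of chondrocytes, and Wwp2, a ubiquitin ligase whose gene hosts a cartilage microRNA. Itga10 stood at 286 ± 31.4 and 255 ± 17.1 CPM and Wwp2 at 272 ± 51.9 and 245 ± 13.0 CPM (isotype and anti-CSF1R, SD, n = 4; edgeR adjusted p = 0.413 and 0.527). Their highest library was 1.34 and 1.61 times the lowest, against 476 times for Matn1. Not all genes of this list were so steady. Snorc, chosen here after its values were seen, spanned 497 times, from 16.4 CPM in isotype 3 to 0.0330 CPM (2 counts) in anti-CSF1R 10.

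Of 10 tested genes of growth plate signalling and hypertrophy, 0 passed in edgeR, 1 was lower and 3 were higher at an unadjusted p under 0.05 (12.6% and 5.26% of all genes), and the median log2 fold change was 0.32. Mmp13, a collagenase of hypertrophic chondrocytes and of bone-forming cells, gave 2624, 1161, 830 and 2840 CPM from isotype 2 to 5, against 2843 to 3295 CPM from the anti-CSF1R libraries (edgeR adjusted p = 0.290). Its low libraries were isotype 3 and 4, and its log2 fold change went from 0.71 to 0.16 with isotype 2 and 5 only. Pth1r, the receptor of PTHrP, stood at 413 ± 157 CPM with isotype, against 303 ± 14.6 CPM (SD, n = 4), and its log2 fold change did not pass in edgeR and went from -0.45 to 0.055 with isotype 2 and 5 only. DESeq2 (3.29% of all genes lower) and edgeR without isotype 2 (260 genes called in all) each called 1 gene of this list lower. This was Gdf5, a growth factor of joint-forming cells.

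The list for aggrecan synthesis and turnover held 21 genes, mostly enzymes, with the transporter Slc26a2, the receptor Cd44 and the protease inhibitor Timp3 among them. It also held Has2, which makes hyaluronan. Of these 21 genes, edgeR called 0, with 1 lower and 4 higher at an unadjusted p under 0.05 (12.6% and 5.26% of all genes). DESeq2 called 0 (4.01% of all genes). Their median was 0.24 on the log2 scale for all libraries and -0.041 for the reduced isotype group. Adamts9 and Adamts5, proteases that can cleave aggrecan or versican, differed by 0.88 ± 0.29 and 0.74 ± 0.30 on the log2 scale, and Ugdh, which makes the UDP-glucuronate for its side chains, 0.58 ± 0.23 (edgeR adjusted p = 0.257, 0.278 and 0.278). Chst12, a chondroitin sulphotransferase, had -0.60 ± 0.22 (edgeR adjusted p = 0.275). Papss2, which makes the sulphate donor, was the 1 gene past the threshold in the reduced isotype group (-0.36, edgeR adjusted p = 0.0329). Its p spanned 0.0329 to 0.977 over 17 alternatives.

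Paralogs of the 10 genes gave 0 of 17 past the threshold on all libraries (0.846% of all genes), with a median log2 fold change of -0.25. At an unadjusted p under 0.05, 3 were lower and 1 higher (12.6% and 5.26% of all genes). DESeq2 called 1 lower (3.29%), the offset fit 1 lower (2.21% in either direction), and isotype 2 and 5 only 1 of 19 higher (0.679%). Of the 17, 2 had every anti-CSF1R library lower and 1 every one higher (8.34% and 6.61% of all genes). For Thbs3, a thrombospondin related to Comp, isotype 2 to 5 gave 57.7, 104, 97.0 and 82.1 CPM, against 50.9, 44.5, 53.2 and 44.2 CPM from anti-CSF1R 7 to 10. The groups did not overlap, and Thbs3 missed the threshold (log2 fold change -0.82 ± 0.20, edgeR adjusted p = 0.111) but passed in DESeq2, without isotype 2 and in the offset fit (-0.56, edgeR adjusted p = 0.0494). The 17 alternatives spanned 0.00621 to 0.351 in adjusted p for Thbs3. Vcan, versican, the aggrecan relative of loose connective tissue, averaged 189 ± 118 CPM under isotype, against 398 ± 26.8 CPM (SD, n = 4), a log2 difference of 1.07 ± 0.42 (edgeR adjusted p = 0.278). Against isotype 2 and 5 alone Vcan was called higher (0.46, edgeR adjusted p = 0.0306), and its p spanned 0.0306 to 0.508 over 17 alternatives. Matn4, another matrilin, and Thbs4, a thrombospondin of tendon and muscle, stood -0.51 and -2.79 from isotype on the log2 scale (edgeR adjusted p = 0.278 and 0.223), Thbs4 with 13.9 CPM in isotype 3 and 1.596 CPM or less elsewhere. Matn4 passed without isotype 2.

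Markers of other cells are given for the same 8 libraries. Of 7 osteoclast and macrophage markers, 6 passed the threshold, all lower, against 0.822% of all genes lower. Their sum was 3526 to 8157 CPM in isotype libraries, against 999 to 1490 CPM with anti-CSF1R. Csf1r itself gave 238 to 549 CPM, against 39.4 to 64.4 CPM. Csf1r (log2 fold change -2.66, edgeR adjusted p = 0.0156) missed the threshold when any 1 of anti-CSF1R 7, 8, 9 or 10 was left out, and its p spanned 1.73e-13 to 0.0812 over 17 alternatives. In those 4 fits its log2 fold change was -2.73 to -2.52. Oscar and Ctsk, of osteoclasts, and Adgre1, of macrophages, were lower with anti-CSF1R by log2 values of -2.62, -1.70 and -1.99 (edgeR adjusted p = 0.00584, 0.0198 and 0.0173). Their calls were lost without anti-CSF1R 7 or 8, for Adgre1 also without 9, and for Ctsk also without 9, 10 or isotype 4, with p up to 0.0699, 0.106 and 0.0820 over 17 alternatives. Erythroid markers (10 genes, led by Hbb-bs and Hba-a1, 0 past the threshold) summed to 382 to 1131 CPM in isotype libraries, against 291 to 861 CPM. Anti-CSF1R 10, lowest in 6 of the 7 matrix genes, was also the lowest of all libraries in both sums. The same held for the neural and glial sum below, but not for the skeletal muscle, tendon or osteoblast sums. Isotype 5, highest in all 10 cartilage genes, was the lowest isotype library in both. It was also the lowest isotype library in the neural, skeletal muscle and osteoblast sums, but not in the tendon and ligament sum. The osteoblast and osteocyte sum ran from 189659 to 306292 CPM in isotype libraries, against 169022 to 200138 CPM with anti-CSF1R. Tendon and ligament markers (8 tested, 0 past the threshold) summed to 2932 to 3280 CPM and 3280 to 3660 CPM, mostly Tnc, with Fmod at 375 ± 104 and 236 ± 29.9 CPM (edgeR adjusted p = 0.262, past the threshold without isotype 2). Skeletal muscle markers (7 of 14 tested, led by Des and Acta1, 0 past the threshold) summed to 9.70 to 82.9 CPM and 9.70 to 11.1 CPM, highest in isotype 3 and then isotype 2. All 7 tested had a log2 fold change below 0 (median -2.12), and 5 were lower at an unadjusted p under 0.05 (12.6% of all genes). DESeq2 called 4 of the 14 muscle genes and 1 tendon and ligament marker lower (3.29% of all genes), and 0 neural or erythroid markers. Neural and glial markers (8 of 13 tested, 0 past the threshold) summed to 21.2 to 27.7 CPM and 17.0 to 26.5 CPM, led by Mbp and Tubb3. Olig2, which marks oligodendrocytes and was chosen here after its values were seen, had counts in anti-CSF1R 7 alone. The part of these cells in the cartilage values was not tested.

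Outside the 10 genes, the 8 genes whose log2 CPM followed their mean scaled level most closely over the 8 libraries, of 14310 genes with a mean of 1 CPM or more, were Atp6v0a4, LOC118568445, Lgi2, LOC118568075, Epyc, Meg3, Aff3 and Gfpt2. They were picked for this likeness, so no p is given for the correlation. Pearson's r was 0.938 to 0.972 over 8 libraries and 0.949 to 0.995 over the 6 libraries other than isotype 3 and 4. Without the 2 libraries farthest from the median level, isotype 5 and anti-CSF1R 10, r was -0.106 to 0.794, so for most of them the likeness rests on that pair. The 10 cartilage genes, each part of the mean, had r of 0.349 (Sox6) to 0.928 (Hapln1) over 8 libraries. Without that pair their r was -0.0805 (Comp) to 0.674 (Matn3), so the shared level too rests largely on these libraries. Epyc, epiphycan, a small proteoglycan of cartilage, stood at 8.78 CPM in isotype 5, 0.165 CPM in anti-CSF1R 10 and 0.792 to 1.79 CPM in the other 6 libraries. Meg3, a long non-coding RNA of an imprinted locus, stood at 221 CPM in isotype 5, 57.8 CPM in anti-CSF1R 10 and 65.0 to 103 CPM in the others. None of the 8 passed the threshold in edgeR (adjusted p = 0.278 to 0.332).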

How the data were processed

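Poly(A) libraries were made from 1 µg of RNA with a stranded kit and sequenced as pairs of 101 bp, per the labels' protocols. The values are raw counts per gene symbol in a single table deposited by the authors. STAR 2.7.10b, featureCounts 1.6.3, GRCm38 and GRCm39 are named in the submitters' processing notes, without roles. The sources used here do not give the annotation, strand setting or handling of multi-mapping reads. Between 82.8% and 84.7% of counts from 1 to 10 were even, as when both mates are counted, so counting error is larger than the totals imply.

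The whole table was fitted with edgeR 4.0.16 (R 4.3.3; filterByExpr, TMM, robust quasi-likelihood F-test, Benjamini-Hochberg over 17028 genes, two-sided). SEs are the fold change over the root of F, an approximation. Floors of 3 counts cover counting error only. Alternatives used DESeq2 1.42.0, limma-voom (limma 3.58.1), other scalings and filters, halved counts, each library left out, isotype 2 and 5 only, and an offset per library from natural splines (5 degrees of freedom each) on the GC content and the log2 length of each gene, from its longest transcript in GENCODE M21, which 94.0% of tested genes had. The genes and lists were chosen with earlier results of these data known; p-values were adjusted over the whole table, with no test of a list. Besides the 10 genes, each list names up to 4 members with the smallest p where any passed on all libraries or with isotype 2 and 5 only, and otherwise the 2 with the highest CPM. Others named are said to be so or complete a small count.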

Additional observations from a re-analysis of the deposited data

Results flagged for a closer look

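Isotype 5 lay far from the other 3 isotype libraries in 2 of the 10 genes, with 17.3 CPM for Matn3 (1.53 to 3.80 CPM in the others) and 66.7 CPM for Hapln1 (12.9 to 20.2 CPM). Taken on CPM, the gap to the nearest library was 0.856 and 0.865 of the group's range, above the 95% critical value of Dixon's test for 4 samples. The test assumes normally distributed values, and a log scale draws in high values. The flag therefore applies to CPM only and does not show isotype 5 to be an outlier on the log2 scale of the fold changes. Of 22 groups examined about 1 in 20 would be expected past the critical value by chance if values were normal, and genes of the same libraries are not independent.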

How the results depend on the processing

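The 17 alternatives gave 170 values for the 10 cartilage genes: 160 kept their direction and side of the threshold, 4 kept their direction and passed (Acan, Comp and Ucma in DESeq2, Comp without isotype 2), and 6 changed sign. With isotype 2 and 5 only, Sox5 went to -0.31 and Sox6 to -0.095, and with the GC and length offset Sox5 went to -0.081. Leaving out 1 library gave -0.37 to 0.080 for Sox9, -1.14 to 0.32 for Matn3 and -0.86 to 0.24 for Hapln1, positive in all 3 without isotype 5. The number of cartilage genes called was 3 in DESeq2 (4.01% of all genes) and 0 to 1 with 1 library left out. In the cartilage collagen, protein, signalling and aggrecan turnover lists, all libraries gave 0 calls and DESeq2 6 (0.846% and 4.01% of all genes). With isotype 2 and 5 only, 1 was called (3.06% of all genes), and 0 to 3 with 1 library left out. Over all genes 144 calls became 734 in DESeq2, 536 with isotype 2 and 5 only, 376 with the offset and 0 to 260 with 1 library left out (0 without anti-CSF1R 7 or 8, 260 without isotype 2). The mean log2 CPM of the 10 genes in anti-CSF1R 10 was 2.00, and the median 3.09. Of 610 values for 36 other genes chosen by the naming rule, 567 kept their direction and side, 14 lost the threshold, 7 gained it and 22 changed sign. Library size alone, which moved the median of all genes from 0.03 to 0.19, took Col11a1, Itga10, Wwp2, Hbb-bs and Hba-a1 to 0.10, 0.0056, 0.017, 0.024 and 0.10, and limma-voom took Col11a1 to 0.10. Isotype 2 and 5 only took Pth1r, Tubb3, Hbb-bs and Hba-a1 to 0.055, 0.052, 0.45 and 0.50, and the offset took Wwp2, Pth1r, Hbb-bs and Hba-a1 to 0.10, 0.023, 0.26 and 0.50. Leaving out 1 library gave -0.21 to 0.17 for Col11a1, -0.38 to 0.27 for Hbb-bs and -0.29 to 0.29 for Hba-a1. The cause of these changes was not tested. No paired analysis was possible because the groups share no replicate number. With 4 libraries a group and a spread of this size between isotype libraries, the intervals on the cartilage genes are wide, and a missed threshold does not show equal levels.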
